A study of Bos taurus with 22 samples.

Results

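BOLA-DQB (ENSBTAG00000021077) is a cattle gene for the beta chain of a DQ molecule of the major histocompatibility complex (MHC) class II. It is 1 of the 24616 genes counted by RNA-Seq in subcutaneous backfat of 22 steers, and its counts were taken from the row of that identifier. The gene was chosen from measured values of these same steers, because the study listed it as differentially expressed between steers of high and low residual feed intake (RFI) in Angus and because its counts differed widely between steers. The Angus difference and the pattern of its levels over the steers are therefore described here with no test.

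The steers were Angus (ANG), Charolais (CHAR) and Kinsella Composite (KC, labelled a crossbred of Hereford and Angus), all housed in a feedlot on the same finishing diet. By the study's account, KC was sired by Angus, Charolais or Alberta Composite bulls. Its composite dam line was mainly Hereford and Angus with some Holstein, so KC shares ancestry with both other breeds. RFI adjusted for fat thickness (RFIfat, in kg) is the feed a steer ate above or below the intake expected of it. Low RFI (L-RFI) steers are therefore the efficient ones, and high RFI (H-RFI) steers the inefficient ones. Of ANG, 4 H-RFI and 4 L-RFI steers were used (RFIfat 0.75 to 1.64 and -1.13 to -0.75), 3 and 3 of CHAR (0.69 to 1.10 and -1.03 to -0.96), and 4 and 4 of KC (0.54 to 2.03 and -1.77 to -0.80). Each sample was 1 steer, and the labels gave no treatment, genotype or sequencing batch.

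MHC class II molecules are pairs of an alpha and a beta chain that hold peptides from engulfed proteins at the cell surface and show them to CD4+ T cells. They are made mainly by B cells, macrophages and dendritic cells, and other cells can be induced to make them by interferon gamma. The cattle MHC is called BoLA, and its classical class II molecules are DR and DQ. The DQ genes vary greatly in sequence between haplotypes (the sets of linked alleles inherited together), and in cattle haplotypes also differ in the number of DQ genes they carry. The samples are labelled as adipocytes but were whole backfat, which also holds immune and vessel cells. In such bulk tissue, fewer cells that make a transcript and less of it per cell cannot be told apart.

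BOLA-DQB has close relatives among its neighbours. In the RefSeq annotation of the later assembly ARS-UCD2.0, which was used for names and gene order only, it lies between the alpha chain genes BOLA-DQA2 and BOLA-DQA5, and the next gene after BOLA-DQA5 is the beta chain gene BOLA-DQB1, which has BoLA-DQB among its synonyms. No other gene of that table overlaps it. The reads were aligned to a single reference genome of another build (UMD3.1), and alignments that were not unique were tallied apart and not counted on genes. Counts for this gene are uncertain to the extent that its reads also fit its copies or that a steer's alleles differ from the reference. The alleles and haplotypes of the steers were not analysed here, so their part in the counts was not tested.

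BOLA-DQB ranged from no read at all to 691 reads per steer. Between 8033008 and 12426133 reads per steer (median 9803200) were counted on genes, and levels are given as CPM, the reads on the gene scaled to the library size of the steer, after normalization of library sizes by the trimmed mean of M values (TMM). At these depths a floor of 3 reads stands for 0.241 to 0.379 CPM on the same scale. The number of reads behind a level is given with it, since 95% Poisson intervals on these reads, exact and for counting error only, are wide in the lower steers.

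In ANG, the H-RFI steers F21, F28 and F32 had 0 reads and F20 had 8 reads (1.01 CPM, interval 0.436 to 1.99). The ANG L-RFI steers F23, F24 and F18 had 196, 213 and 311 reads (23.4, 25.5 and 28.8 CPM), while F25 had 14 (1.59 CPM, interval 0.870 to 2.67). All L-RFI steers thus lay above all H-RFI steers in this breed, but the highest H-RFI steer and the lowest L-RFI steer were within counting error of each other.

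In CHAR, the H-RFI steers F36, F48 and F43 had 11, 18 and 273 reads (0.899, 1.96 and 28.9 CPM). The CHAR L-RFI steers F33, F46 and F47 had 1, 9 and 22 reads (0.0886, 0.787 and 2.38 CPM). CHAR was the breed in which no steer had a count of 0, and F43 was its single steer with more than 22 reads.

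In KC, the H-RFI steers F7 and F9 had 0 reads, F8 had 10 (0.929 CPM) and F1 had 691 (66.3 CPM, interval 61.5 to 71.5). The KC L-RFI steers F10 and F14 had 0 reads, F16 had 152 (17.6 CPM) and F11 had 274 (25.9 CPM). Steers at 0 and steers above 150 reads were thus found in both RFI groups of KC, and the highest level of all 22 steers belonged to an H-RFI steer.

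**Figure D1:**
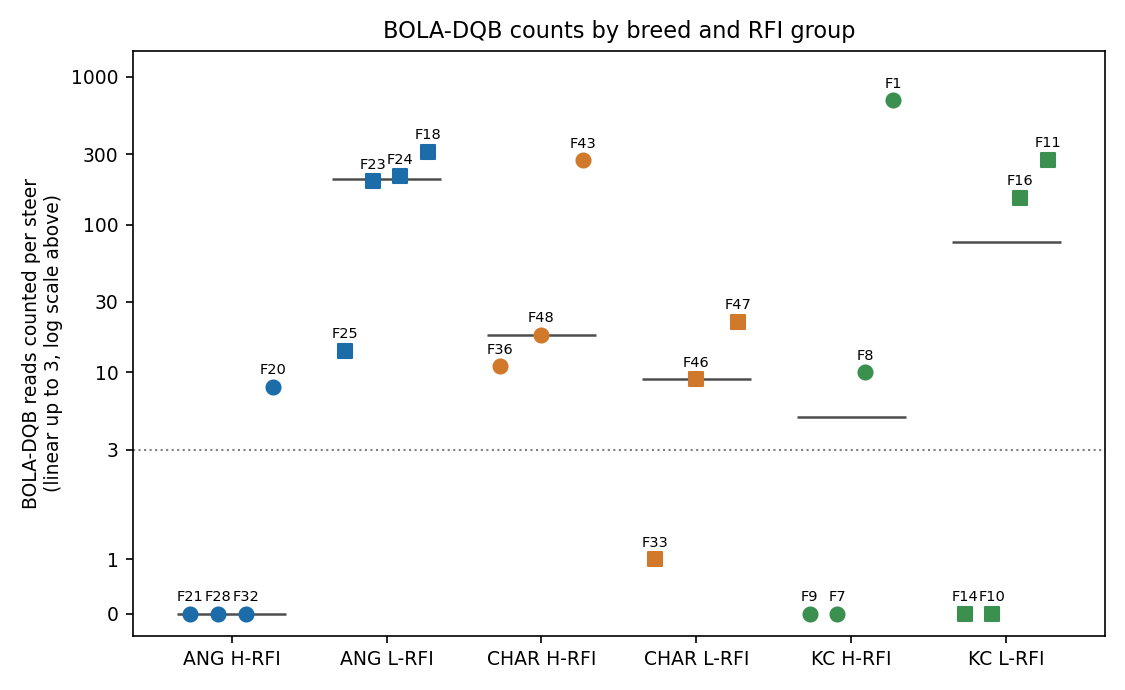
BOLA-DQB reads per steer (vertical axis, linear from 0 to 3 reads and logarithmic above) by breed and RFI group, with H-RFI as circles, L-RFI as squares and the group median as a bar; the dotted line marks 3 reads. All 4 ANG L-RFI steers (14 to 311 reads) lie above the 4 ANG H-RFI steers (0 to 8), while in CHAR and KC the RFI groups overlap.

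Ordered by level, the steers did not form a smooth gradient, and they did not fall into a simple on and off either. There were 8 steers with 0 or 1 read, 7 with 8 to 22 reads and 7 with 152 to 691 reads, and none in between 22 and 152. The step from F47 (22 reads, 2.38 CPM) to F16 (152 reads, 17.6 CPM) was 7.40-fold, and the counting intervals of these neighbours, 13.8 to 33.3 and 129 to 178 reads, were apart. The only other neighbours in the order with intervals apart were F43 (28.9 CPM) and F1 (66.3 CPM), a step of 2.29-fold.

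Among the 7 steers of the upper set, F16, F23, F24, F11, F18 and F43 lay within 17.6 to 28.9 CPM, a range of 1.64-fold over 3 breeds and both RFI groups, and F1 stood above them. These 7 steers held 2110 of the 2203 reads counted on the gene (95.8%), and F1 alone held 31.4%. The counting intervals of neighbours within the set other than F43 and F1 overlapped, which is not a test that their levels were equal. The intervals of F16 (14.9 to 20.7 CPM) and F43 (25.6 to 32.6 CPM), the lowest and the highest below F1, were apart.

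By their counting intervals, the lower levels were less clearly separated. The 7 steers with 8 to 22 reads lay within 0.787 to 2.38 CPM, a range of 3.03-fold, and the intervals of neighbours among them overlapped. Below them, F46 (9 reads) lay 8.88-fold above F33 (1 read), but their intervals, 4.12 to 17.1 and 0.0253 to 5.57 reads, overlapped. Overlap of intervals does not decide whether steers differ, and a difference between F46 and F33 was not tested. A count of 0 carried a 2-sided interval up to 3.69 reads, slightly above the floor of 3, so that the 7 steers at 0 and F33 could not be told apart at this depth, and no read is not evidence that the transcript was absent.

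**Figure D2:**
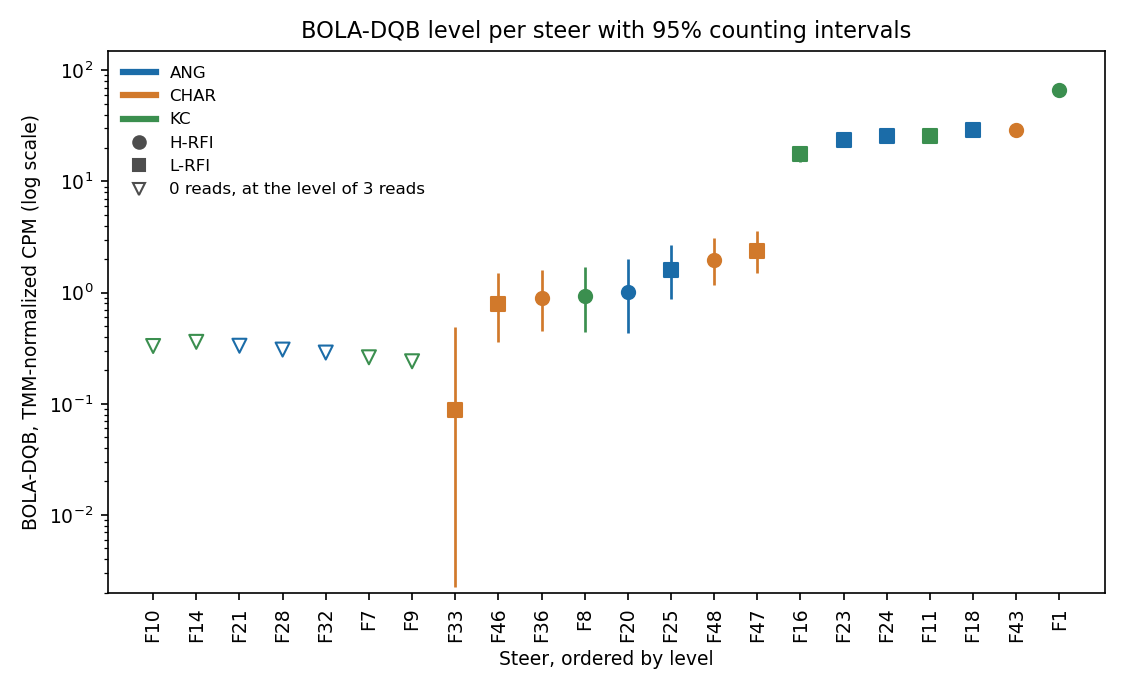
BOLA-DQB level per steer in TMM-normalized CPM (vertical axis, log scale), ordered from low to high, with vertical lines for the 95% Poisson interval of the reads; colours are breeds, circles H-RFI, squares L-RFI, and open triangles mark steers with 0 reads at the level of 3 reads. The 7 highest steers (17.6 to 66.3 CPM) stand apart from the next one (2.38 CPM), and each breed has steers on both sides of that gap.

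The 3 sets were spread over the breeds and RFI groups. At least 150 reads were counted in 3 of 8 ANG steers, 1 of 6 CHAR steers and 3 of 8 KC steers, or in 2 of 11 H-RFI and 5 of 11 L-RFI steers. No read was counted in 3 ANG, 0 CHAR and 4 KC steers, or in 5 H-RFI and 2 L-RFI steers. Median levels were 1.301 CPM in ANG, 1.43 in CHAR and 0.465 in KC, all far below the breed means of 10.03 ± 13.2 (SD, n = 8), 5.84 ± 11.3 (SD, n = 6) and 13.8 ± 23.4 CPM (SD, n = 8), since a few high steers made up the mean of each breed. The SD was larger than the mean in every breed.

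For the contrast that chose the gene, ANG H-RFI steers averaged 0.253 ± 0.506 CPM and ANG L-RFI steers 19.8 ± 12.3 CPM (SD, n = 4 each), a 78.3-fold ratio of means. The fitted log2 fold change (log2FC, L-RFI against H-RFI, edgeR quasi-likelihood fit) was 6.41 with a standard error (SE) of 1.11. No other gene of the 13613 tested in ANG had as large a log2FC in either direction (0.00735% of genes with BOLA-DQB itself), and 5.04% of these genes had an unadjusted p under 0.05. L-RFI steers lay wholly above H-RFI steers for 1.29% of those genes. The gene passed the low-count filter (more than 1 CPM on the total count, without TMM, in 50% or more of a breed's steers) through the 4 L-RFI steers alone, since F20 was at 0.973 on that scale, so that it was tested because it was high in that group. The fitted value rested on few reads in the lower group: without F20, all remaining H-RFI steers had 0 reads and it became 10.54, a number set by the prior count and not a bound, and without each other steer it lay as low as 5.97.

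The RFI contrasts in CHAR and KC were not the ones that chose the gene, although the levels of these steers belong to the wide spread for which it was picked, so the tests are not fully independent of the choice. Neither contrast gave a difference past the cut-offs of the study (absolute log2FC of at least 1 and false discovery rate, FDR, below 0.1). In CHAR the direction was opposite to that in ANG, with an average of 10.6 ± 15.9 CPM for H-RFI and 1.09 ± 1.18 for L-RFI steers (SD, n = 3 each). The log2FC was -3.32 (SE 1.40), with an unadjusted p = 0.0457 and an FDR of 0.948 in edgeR's quasi-likelihood test over 13737 genes, of which 4.63% had an unadjusted p under 0.05. This test called 0% of the CHAR genes (smallest FDR 0.788), so that missing the cut-offs there says little of BOLA-DQB. edgeR's exact test called 0.284% of them and gave BOLA-DQB an FDR of 0.359. In an exact permutation test of log2 CPM (2-sided) the groups differed by -2.18 with p = 0.4, where 0.1 is the smallest p that 3 steers against 3 allow. The CHAR difference rested on F43, and without it the log2FC was -0.42.

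KC H-RFI steers averaged 16.8 ± 33.0 CPM and KC L-RFI steers 10.9 ± 13.01 (SD, n = 4 each). Both groups held steers with 0 reads. Only 3 of the 8 KC steers exceeded 1 CPM, so that the gene did not pass the filter and was fitted with all 20265 genes that had a read in KC. The log2FC was -0.61 (SE 1.49) with an FDR of 0.880 and an unadjusted p = 0.690 in the quasi-likelihood test, where 0.00493% of genes passed both cut-offs. The mean of log2 CPM pointed the other way, 0.66 higher in L-RFI, with p = 1.0 in the exact permutation test (smallest possible p 0.0286). The sign of the fit was set by 1 steer. Without F1 the log2FC was 5.16 (FDR 0.210), higher in L-RFI as in ANG and still not past the cut-off.

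**Figure D3:**
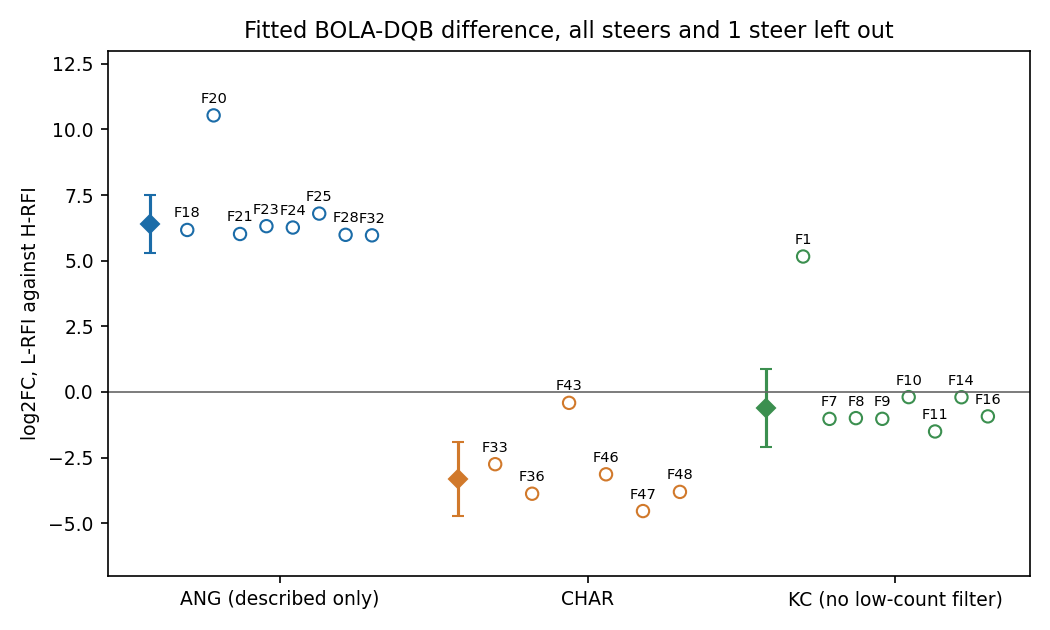
Fitted BOLA-DQB log2FC of L-RFI against H-RFI (vertical axis) with all steers of a breed (diamonds, with bars of 1 SE) and with 1 steer left out (open circles, named by that steer). Leaving out F20 in ANG (10.54), F43 in CHAR (-0.42) and F1 in KC (5.16) moved the value most in each breed.

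Breeds were compared between CHAR and KC with RFI group as a term. The log2FC of CHAR against KC was -1.69 (SE 1.38), FDR 0.459 in the quasi-likelihood test over 13985 genes, of which 1.72% passed both cut-offs. The mean of log2 CPM was 0.21 higher in CHAR, with p = 0.912 in an exact permutation test over 3003 arrangements that left RFI group out. The sign thus differed between the fit and the means, which differ in scale and in the RFI term. Without F1 the fitted value was 0.28. The RFI difference itself was compared between CHAR and KC by an interaction term, added after the data were seen. It was -2.73 (SE 2.82), with an FDR of 0.870 in the quasi-likelihood test, in which 0% of genes passed both cut-offs, and an unadjusted p = 0.349. At these numbers of steers and this spread, neither a difference nor a likeness between the breeds was shown.

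Few genes of this tissue varied between steers as BOLA-DQB did. Its SD of log2 CPM over the 22 steers was 3.03, against a median of 0.293 over the 14048 genes that passed the same filter in any breed. BOLA-DQB and the genes above it were 5 of 14048 (0.0356%). Its largest gap between neighbouring steers was 2.79 on the log2 scale, against a median of 0.234, and 19 genes (0.135%) had a gap at least as large. In 7 of these 19 the gap set a single steer apart from the others. In 8 of them, BOLA-DQB included, at least 5 steers stood on each side (0.0569%). These figures describe a gene that was picked for its pattern and carry no p.

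Of the genes with a name and as large a spread or gap, 3 owed their gap to a single steer. NEB and TTN, sarcomere proteins of skeletal muscle, had gaps of 4.76 and 3.13 that set the KC L-RFI steer F11 apart from all others. AP3B2, a subunit of an adaptor complex for vesicle sorting, had a gap of 2.91 below the single steer F32. MIR2887-2, a microRNA gene, was like BOLA-DQB split between many steers, with an SD of 4.205 and a gap of 4.18 with 11 steers above it. On raw reads, BOLA-DQB was 1 of 3 genes among the 24616 (0.0122%) with at most 3 reads in at least 8 steers and at least 150 reads in at least 7 steers, limits drawn from its own values, and 4 genes (0.0162%) had at most 3 reads in 5 steers or more and at least 150 in 5 or more.

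**Figure D4:**
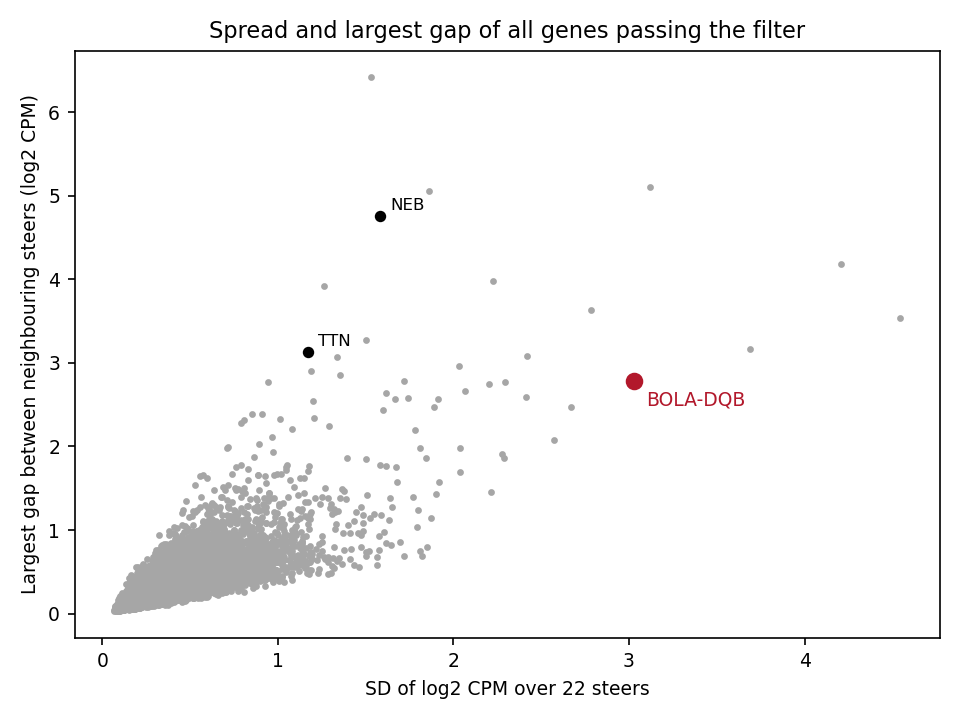
Largest gap between neighbouring steers (vertical axis, log2 CPM) against the SD of log2 CPM over the 22 steers (horizontal axis) for the 14048 genes that passed the filter; each point is a gene. BOLA-DQB (red, SD 3.03, gap 2.79) lies far from the bulk of genes, and NEB and TTN (black) have larger gaps that come from 1 steer.

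The genes most like BOLA-DQB across the steers were named by Pearson's r of log2 CPM over 14047 genes and 22 steers. The highest was ENSBTAG00000033983 with r = 0.65 (0.62 to 0.71 with each steer left out), followed by ENSBTAG00000006587 with 0.62, and the eighth had 0.56. The files pair neither identifier with a name. Their own ranges were narrow, 64.1 to 111 and 7.18 to 11.7 CPM, and neither followed the steps of BOLA-DQB in size. The most opposite was ENSBTAG00000011198 with r = -0.72. As the best of 14047 values over 22 steers that share libraries and depth, these are descriptions.

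PI16, a secreted peptidase inhibitor known from fibroblasts, was the third lowest gene (r = -0.61, Spearman's rho -0.68, and -0.58 after centring each breed and RFI group on its mean) and the lowest of the 241 other genes with a name. Its levels ran from 53.5 CPM in F43 to 426 in F8. In the ANG H-RFI steers F20, F32, F21 and F28 it was at 128, 205, 341 and 408 CPM. In the ANG L-RFI steers F24, F25, F23 and F18 it was at 71.4, 75.5, 139 and 181 CPM. The order was not a strict reverse of BOLA-DQB, since F18, with the most BOLA-DQB reads of this breed, had more PI16 than F20. Its RFI difference in ANG was -1.21 (SE 0.39, FDR 0.827 in the quasi-likelihood test). Over all named genes r ran from this value to 0.44, with a median of -0.06.

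Whether other genes of antigen presentation moved with BOLA-DQB could be followed only in part. The count table holds identifiers alone, and names came from the study's list of 242 genes it called in these steers, so that of 116 symbols on lists of MHC, antigen processing, interferon and cell type markers 4 could be matched (BOLA-DQB, IDO1, TTN and NEB). The partner genes of the DQ and DR molecules, the invariant chain and the class II transactivator were not among them, nor were markers of adipocytes or leukocytes, and the labelled tissue could not be checked by its markers. The values below therefore concern 16 immune genes with a name, chosen after these lists could not be matched. Since the study had called each of them in at least 1 breed, they are not independent evidence of a direction. For the same reason, how many of them were called or had a low p is no evidence of an excess over all genes.

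Of the 6 genes tied to cells that present antigen or make antibody, none passed both cut-offs of the quasi-likelihood test in any breed. That test called 0% of all genes in ANG and in CHAR and 0.00729% in KC, so this count says little. The exact test and DESeq2 called some of the 6, as given below. IGHM, the heavy chain of IgM in B cells and plasma cells, averaged 23.8 ± 18.9 CPM for ANG H-RFI and 9.80 ± 5.35 for ANG L-RFI steers (SD, n = 4 each), with FDR 0.994 in the quasi-likelihood test (log2FC -1.29, SE 0.62). In KC, IGHM was at 18.5 to 31.7 CPM in the upper-set steers F1, F11 and F16, and at most 12.3 in the others. In ANG L-RFI it was at 7.95 to 14.4 CPM in F18, F24 and F23, and 3.07 in F25. The other way, the ANG H-RFI steers F28 and F32, with no BOLA-DQB read, had 50.1 and 20.5 CPM, and F20 had 19.5. In CHAR, F48 had 53.5 CPM and the upper-set steer F43 had 15.04. FCRL5, a receptor of B cells, was at 16.3 ± 7.80 and 5.87 ± 1.502 CPM in ANG H-RFI and L-RFI (log2FC -1.48, SE 0.32, FDR 0.690 in the quasi-likelihood test). All ANG L-RFI steers lay below all H-RFI steers for FCRL5, the direction opposite to BOLA-DQB, as for 1.57% of the genes tested in ANG. CLEC10A, a lectin of macrophages and dendritic cells, and CD1E, a protein of dendritic cells that handles lipid antigens, were low in ANG. CLEC10A averaged 2.70 ± 1.41 CPM for H-RFI and 1.91 ± 0.143 for L-RFI, and CD1E averaged 2.58 ± 1.74 and 3.54 ± 3.29 (SD, n = 4 each). SIRPB1, a receptor of myeloid cells, averaged 19.8 ± 16.8 and 18.99 ± 11.6 CPM in these groups (SD, n = 4 each). None of the 6 genes lay higher in all ANG L-RFI than in all ANG H-RFI steers, as 1.29% of the genes tested in ANG did. At so small a share, finding none among 6 genes says little.

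IDO1, an enzyme that degrades tryptophan and is induced by interferon gamma, was the only gene of the interferon list with a name. It was at 8.87, 12.0, 12.3 and 54.6 CPM in the ANG H-RFI steers F21, F20, F28 and F32, and at 24.2, 24.7, 27.6 and 28.5 CPM in the L-RFI steers F24, F25, F18 and F23. Its highest level, 127 CPM, was in the CHAR H-RFI steer F43, which was also the highest CHAR steer for BOLA-DQB, while the KC L-RFI steer F10 had 105 CPM of IDO1 and no read of BOLA-DQB. Over the 22 steers its r with BOLA-DQB was 0.08.

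Over all 16 genes, r with BOLA-DQB ran from -0.34 (FCRL5) to 0.32 (IGHM), and from -0.48 (CD1E) to 0.54 (IGHM) after centring within breed and RFI group. With 22 steers and the mass of BOLA-DQB reads in 7 of them, these values are a description, and none of them was tested. In ANG the median log2FC of the 16 genes was -0.40, with 5 above 0 and 11 below, while BOLA-DQB was at 6.41. The quasi-likelihood test called 0 of the 16 in ANG, where it called 0% of all genes, and 6 had an unadjusted p under 0.05, a level that 5.04% of all ANG genes reached. Of the 16, edgeR's exact test called 6 and DESeq2 called 5, all lower in L-RFI. Over all genes the shares called were 0.338% and 0.235%. The 16 had a name because the study had called them, so no excess can be read from these counts. CFB, complement factor B, which forms the alternative pathway convertase, averaged 412 ± 148 CPM for ANG H-RFI and 119 ± 25.3 for ANG L-RFI steers (log2FC -1.79, SE 0.26, FDR 0.333 in the quasi-likelihood test).

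In CHAR the median log2FC of the 16 genes was -0.14 (8 above 0 and 8 below). None was called by the quasi-likelihood test (4 with an unadjusted p under 0.05, against 4.63% of all genes) or by DESeq2, which called 0.167% of all genes. The exact test, which called 0.284% of all genes, called IGHM and CAMP, an antimicrobial peptide, as lower and SIRPB1 as higher in L-RFI. In KC the median was 0.61 (9 above 0 and 7 below). None was called by the quasi-likelihood test, which called 0.00729% of all genes and gave 7 of the 16 an unadjusted p under 0.05, a level that 18.2% of all KC genes reached. The exact test and DESeq2 each called 7 of the 16 in KC, all higher in L-RFI and CLEC10A, CD1E and IDO1 among them. Over all genes the shares called were 1.29% and 1.2%. In CHAR and KC too, the choice of the 16 from the study's own calls means that these counts show no excess. IDO1 averaged 24.5 ± 12.2 CPM for KC H-RFI and 60.8 ± 31.5 for KC L-RFI steers (SD, n = 4 each).

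**Figure D5:**
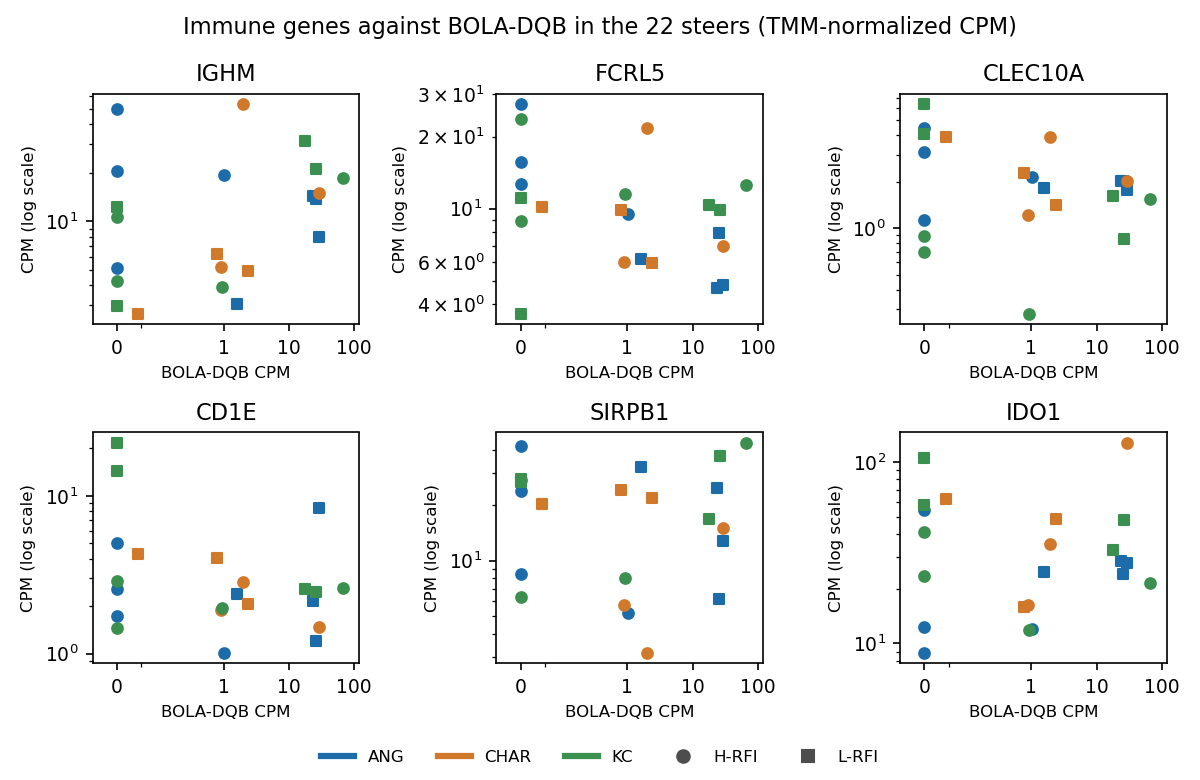
Levels of 6 genes tied to cells that present antigen or make antibody (vertical axes, CPM, log scale) against BOLA-DQB (horizontal axis, CPM, linear near 0 and logarithmic above) in the 22 steers, all TMM-normalized; colours are breeds, circles H-RFI and squares L-RFI. Steers without BOLA-DQB reads span most of the range of each gene, from 2.98 to 50.1 CPM for IGHM, for example.

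Depth and the tallies of ambiguous reads were weakly related to the level. Over the 22 steers r of log2 BOLA-DQB CPM was -0.19 with the total count and 0.07 with the percent of reads that overlapped more than 1 gene (0.303% to 2.16%, median 1.19%). Alignments that were not unique numbered 1.01 to 1.65 per counted read (r = -0.0002). These lines cover all genes, and reads that fit BOLA-DQB and its copies alike are not shown apart, so their part in the level of BOLA-DQB was not tested. Skeletal muscle genes stood out in 1 upper steer. F11 had 201 CPM of NEB and 2362 of TTN, against at most 7.21 and 253 in the other KC L-RFI steers, and without F11 the KC log2FC of BOLA-DQB was -1.51. The part of muscle tissue in this steer's BOLA-DQB level was not tested.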

How the data were processed

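Subcutaneous backfat of 22 steers was profiled by RNA-Seq (ribosomal RNA removed, stranded libraries, paired 100 bp reads). The authors trimmed the reads with fastq-mcf, aligned them to UMD3.1 with TopHat2 (2.0.9), sorted them with SAMtools (1.1) and deposited raw counts per gene from HTSeq-count (0.6.1); the annotation version and strand setting are not given in the sources used here. The table holds 24616 genes and 5 summary lines, which were kept out of library sizes and tests. The groups came from the labels.

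BOLA-DQB, the gene lists and the tests were chosen with earlier results of these data known. Within a breed, the RFI groups were compared by edgeR (4.0.16, R 4.3.3) with TMM factors and the quasi-likelihood test over all genes that exceeded 1 CPM in 50% or more of its steers. Genes were called at a Benjamini-Hochberg FDR below 0.1 and an absolute log2FC of 1 or more. The filter used CPM on the total count. The BOLA-DQB values in KC came from a fit without the filter, because the gene did not pass it there; the other genes in KC came from the filtered fit. SE is the log2FC divided by the root of the F statistic. Log2 CPM used a prior count of 2. Alternatives were RLE factors, no filter, edgeR's exact test, DESeq2 (1.42.0), other prior counts, other measures of likeness and leaving out each steer. Intervals are exact Poisson intervals (95%). Exact permutation tests and figures used python 3.11.15, scipy 1.17.1 and matplotlib 3.10.9.

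Names came from the study's supplementary list of 242 genes, all found in the table. The genes named are BOLA-DQB, the members of 13 lists that could be matched (4 of 116 symbols), the genes with the highest and lowest correlation, of which at most 2 without a name are printed in each direction, and, chosen after the values were seen, 16 immune genes, PI16, and the named genes with as large a spread or gap. Nothing is said of functions for identifiers without a name. Not every gene counted among the 16 is reported here by name. No sequence or coordinate is given, because no reference of the build UMD3.1 was used here.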

Additional observations from a re-analysis of the deposited data

Results flagged for a closer look

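In groups of 4 steers, a steer was set aside for a closer look when its gap to the nearest other steer took up more of the range of the group than Dixon's 95% critical value allows. Chance does this in about 1 of 20 groups where values are normally distributed. Here the values were CPM without a log, and many of the genes were picked after the values were seen. That rate is therefore no yardstick for the 52 groups over 13 genes that were looked at, of which 7 met the limit. BOLA-DQB met it in ANG H-RFI, where F20 was at 1.01 CPM and the others had no read, and in KC H-RFI, where F1 was at 66.3 CPM and the next steer at 0.929. The ANG case rests on 8 reads and says nothing of F20, since with 3 steers at 0 any read in the remaining one meets the limit. Both groups belong to the pattern for which the gene was chosen, and their values are given as a description. The KC case decides the sign of the KC difference.

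In the ANG L-RFI group, CD1E was at 8.41 CPM in F18 and at most 2.39 in the others. FCRL5 was at 3.64 CPM in the KC L-RFI steer F10 and at least 9.92 in the others. IDO1 was at 54.6 CPM in the ANG H-RFI steer F32, which had no BOLA-DQB read, and at most 12.3 in the others. NEB was at 201 CPM and TTN at 2362 CPM in the KC L-RFI steer F11, against at most 7.21 and 253.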

How the results depend on the processing

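With each steer left out, the BOLA-DQB log2FC ran from 5.97 to 10.54 in ANG (the highest without F20), from -4.54 to -0.42 in CHAR (FDR 0.789 to 0.999) and from -1.51 to 5.16 in KC (FDR 0.210 to 0.967), and the log2FC of CHAR against KC ran from -2.04 to 0.28 over 11 fits (FDR 0.366 to 0.950); without F43, F47 or F48 the gene did not pass the filter for that comparison. The signs changed in KC and between the breeds without F1 only. Where the gene failed the filter in ANG or CHAR after a steer was left out, the fit was made without the filter, a choice made after seeing the data, as were all alternatives in KC. RLE factors, no filter, DESeq2 and, where run, the exact test changed no sign for BOLA-DQB. Where they gave an FDR, in CHAR, in KC and between these breeds, they changed no call either. In ANG the call of BOLA-DQB was not compared across tests. There the study listed the gene as differentially expressed, while the quasi-likelihood test called 0% of all genes. In CHAR the exact test gave an FDR of 0.359, and DESeq2 gave no p. For the planned list of antigen presentation genes, IDO1 alone had a name. The count called in KC was 0 in the quasi-likelihood test (FDR 0.158) but 1 in the exact test (FDR 0.0180) and 1 in DESeq2 (FDR 0.0279). IDO1 had a name only because the study had called it, so these calls are not independent of that choice. The cause of the difference between the tests was not tested.

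The SD of log2 CPM ran from 2.52 to 3.82 with prior counts of 5 and 0.5, and with each steer left out from 2.87 to 3.11; the largest gap ran from 2.78 to 3.19 with each steer left out. The number of genes with as large a gap depended on the prior count, with 41 at 0.5, 25 at 1, 19 at 2 and 16 at 5. It was 30 among the 13742 genes with a mean of at least 1 CPM, and 11 without F16, where those with at least 5 steers on each side fell from 8 to 5 and those with a single steer apart from 7 to 2 (4 without F11). Steers above 1 CPM were 11 with TMM and 10 on the total count. The likeness depended on the measure, since 5 of the 8 most alike genes were shared with Spearman's rho and 2 of the 8 after centring within groups. The depth limits what can be said of the 8 steers with 0 or 1 read, and the number of steers limits every comparison between groups. No paired analysis was possible because the labels number every steer separately.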
